A study of Mus musculus with 21 samples.

Results

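The islet hormone genes Ins2, Gcg, Sst, Ghrl, Iapp, Pyy and Ppy were followed in sorted cells of the mouse embryonic pancreas. They were chosen by name as genes of the hormones that islet cells secrete, and each was read from the array row that carried its symbol alone. Of the 8 genes named, 7 had such a row, each from 1 probe set, out of 19296 genes on the array with 1 symbol. The insulin gene Ins1 had none and is not described further.

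Pancreata were taken from E12.5 to E15.5 and their cells separated by Foxa2-Venus Fusion (FVF), in which the forkhead transcription factor Foxa2 is joined to the fluorescent protein Venus. All 8 groups came from mice of a mixed background, C57-Bl6/SV129/CD1, and all carried the fusion, so that the sorts differ in its signal and not in genotype. Whether the allele was in 1 or both copies, how many embryos gave a sample and what cells the gate left out are not given in the sources used here. The 4 days, in order, had 3, 2, 3 and 3 arrays of FVF+ cells and 2, 2, 3 and 3 arrays of FVF- cells. The replicates were described as biological, with no word on separate embryos or litters, so a p-value here speaks of the spread among 21 samples only. Foxa2 itself lay between 10.87 and 11.51 on the FVF+ arrays and between 7.98 and 8.89 on the FVF- arrays, on the log2 scale of the robust multi-array average (RMA) used for every level below. All 6 epithelial markers were higher in FVF+ and all 10 mesenchyme markers lower, as means over the 4 days. Array codes carry letters for both FVF+ arrays and 1 FVF- array at E13.5 and rising numbers elsewhere; the meaning of the codes is not given, and in FVF+ the letter codes and E13.5 cannot be told apart.

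Each islet hormone marks a cell type: glucagon (Gcg) alpha cells, insulin (Ins1 and Ins2) beta cells, somatostatin (Sst) delta cells, ghrelin (Ghrl) epsilon cells and pancreatic polypeptide (Ppy) PP cells. Amylin (Iapp) is packed with insulin and slows gastric emptying, and peptide YY (Pyy) is a relative of pancreatic polypeptide that is also made in early endocrine cells. In the mouse, glucagon cells appear first, and most beta cells arise in a later wave of differentiation known as the secondary transition. These genes are transcribed under homeodomain and basic helix-loop-helix factors that bind close to their start sites.

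Promoters of Sst, Iapp and Gcg are shown for a gene that was near its highest level on every day in FVF+ cells (Gcg) and for a pair that rose, of which Sst overlapped between sorts at E12.5 and Iapp did not. Each runs from 250 bases before to 50 bases after the start site, 5′ to 3′ on the gene's strand, from RefSeq on GRCm38.p6. Sst lies at chr16:23890795-23891094 (minus strand), Iapp at chr6:142298175-142298474 (plus strand) and Gcg at chr2:62483604-62483903 (minus strand). Capitals mark matches on either strand to TAAT (the core bound by homeodomains), CAGATG (an E-box form), TATAAA (the TATA box), TGACGTCA (the cyclic AMP response element) and TGTTTAC (a forkhead core).
Sst: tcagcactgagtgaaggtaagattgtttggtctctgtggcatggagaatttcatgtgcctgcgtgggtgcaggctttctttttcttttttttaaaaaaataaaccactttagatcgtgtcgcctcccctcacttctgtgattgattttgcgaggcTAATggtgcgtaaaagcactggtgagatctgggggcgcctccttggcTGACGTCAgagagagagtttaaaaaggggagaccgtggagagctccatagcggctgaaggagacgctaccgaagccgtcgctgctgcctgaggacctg
Iapp: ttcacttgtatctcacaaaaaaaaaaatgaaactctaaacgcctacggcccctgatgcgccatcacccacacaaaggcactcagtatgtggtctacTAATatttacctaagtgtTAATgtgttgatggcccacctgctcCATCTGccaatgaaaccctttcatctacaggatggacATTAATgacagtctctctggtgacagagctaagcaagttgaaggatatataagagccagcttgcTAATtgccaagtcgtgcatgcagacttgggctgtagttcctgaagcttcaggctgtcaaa
Gcg: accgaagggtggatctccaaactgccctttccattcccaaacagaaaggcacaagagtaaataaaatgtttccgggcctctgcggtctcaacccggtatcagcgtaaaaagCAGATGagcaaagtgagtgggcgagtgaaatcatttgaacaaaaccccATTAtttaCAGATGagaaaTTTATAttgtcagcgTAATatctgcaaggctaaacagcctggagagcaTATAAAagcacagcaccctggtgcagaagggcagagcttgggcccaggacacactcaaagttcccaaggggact
The Sst promoter held 1 TGACGTCA and 1 TAAT, the Iapp promoter 5 TAAT, of which one pair overlaps, and 1 CAGATG, and the Gcg promoter 2 TAAT, 2 CAGATG and 2 TATAAA. No TGTTTAC was found in any of the 3 windows, and other forms of the forkhead core were not searched. Among 32851 promoter windows of the same length, 58.0% held TAAT, 17.2% CAGATG, 13.6% TATAAA, 1.79% TGACGTCA and 3.65% TGTTTAC. The windows of Ghrl and Pyy held no match to these letters, that of Ppy held 1 TATAAA, and that of Ins1 held 3 TAAT and 2 CAGATG. For Ghrl, with 4 start sites listed, and Pyy, with 2, only the window at the site nearest the gene's 5′ end was searched. A match describes the letters only, and Ins2 was named without a window.

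The first comparison asked how each hormone gene differed between the sorts. Averaged over the 4 days, all 7 were higher in FVF+ cells, against 30.5% of all genes called higher and 55.7% called in either direction (limma, adjusted p under 0.05 over all genes, the rule for every call below). Their median log2 difference was 2.96, against 0.03 over all genes. At E12.5 6 of the 7 were higher, where 17.2% of all genes were called higher and 35.9% in either direction. At E13.5 it was again 6, beside 15.8% higher and 30.9% in all. All 7 were called at E14.5, beside 23.1% and 44.6%, and all 7 at E15.5, beside 24.4% and 43.9%. In bulk RNA of this kind, fewer cells of a type and less RNA per cell cannot be told apart.

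**Figure D1:**
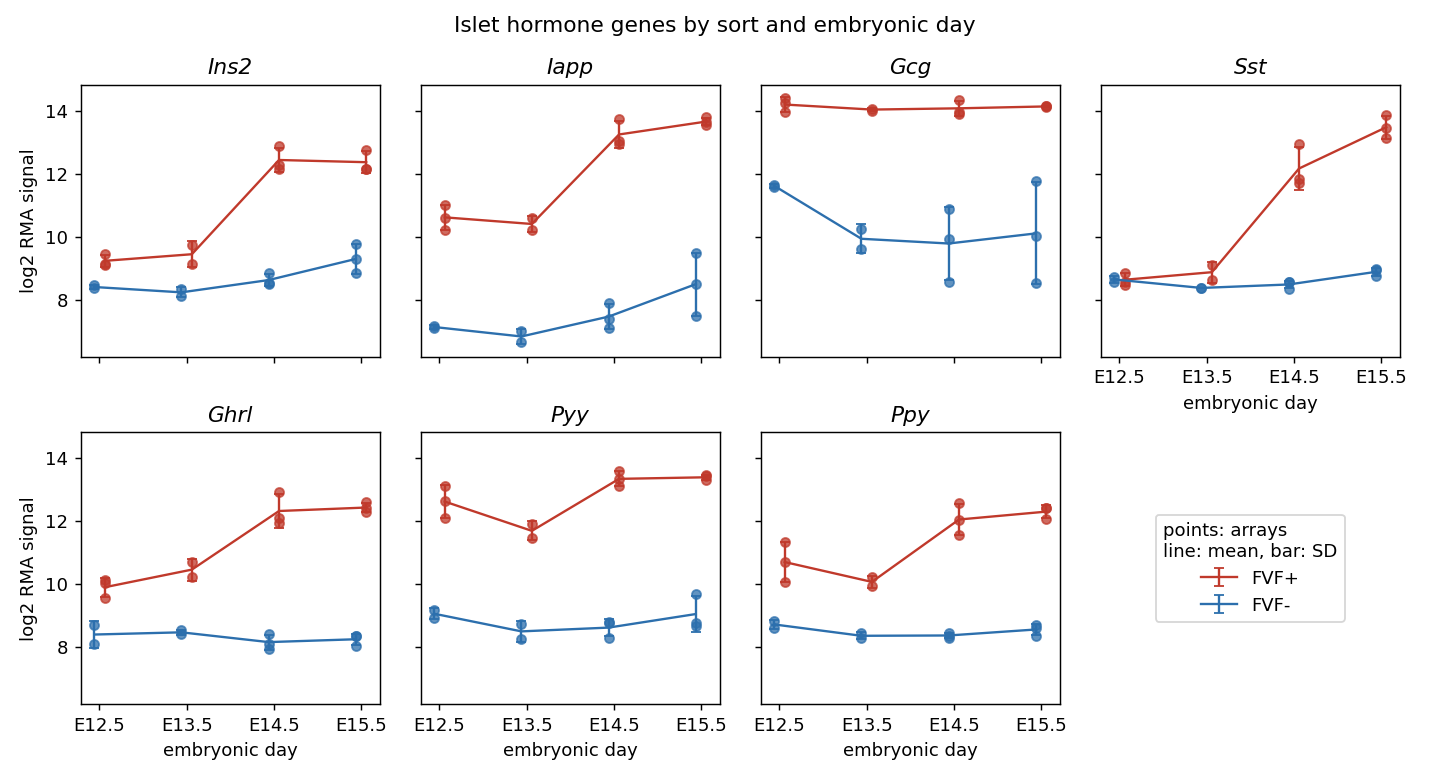
Log2 RMA signal (vertical axis) of the 7 hormone genes against embryonic day (horizontal axis), with 1 point per array, a line through the group means and bars for the SD, for FVF+ and FVF- cells. Gcg is near 14 in FVF+ cells on every day, whereas Sst starts at the FVF- level, between 8.47 and 8.85 at E12.5, and reaches 13.12 to 13.86 at E15.5.

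Glucagon stood out at E12.5 in both sorts. Gcg gave 14.40, 14.23 and 13.95 on the FVF+ arrays of E12.5 and 14.05 and 14.00 on those of E13.5. The E14.5 arrays gave 13.96, 14.34 and 13.90, and those of E15.5 14.13, 14.12 and 14.13. The 4 days overlapped, and no day stood above or below the rest. Between E12.5 and E15.5 Gcg differed by -0.07 ± 0.57 in FVF+ (SE, limma adjusted p = 0.933). That SE pools the wide spread of Gcg in the FVF- arrays, and with the 2 FVF+ groups fitted alone the difference was -0.07 ± 0.12 (limma adjusted p = 0.661). The highest value of any gene on any array was 15.31, and whether the signal of Gcg was compressed near the top of the range was not tested.

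The FVF- arrays gave Gcg values of 11.65 and 11.57 at E12.5 and 10.25 and 9.60 a day later. They were 9.91, 8.56 and 10.88 at E14.5, and 8.53, 11.76 and 10.01 at E15.5. No FVF- array reached any FVF+ array, and the sorts differed by 2.58 ± 0.63 at E12.5 (limma adjusted p = 0.00355) and by 4.03 ± 0.57 at E15.5 (1.04e-05). The smaller gap at E12.5 came with the higher FVF- values, which were close together on both arrays. On those arrays the mean of 6 epithelial markers was 8.30 and 8.29, the lowest of all FVF- arrays, and the mean of 9 pan-endocrine markers was 7.50 and 7.46, within the FVF- range of 7.37 to 7.94. The part of epithelial or endocrine cells in the FVF- signal was not tested.

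Peptide YY was likewise high in FVF+ cells from the first day. Pyy gave 13.12, 12.64 and 12.09 at E12.5 and 11.90 and 11.47 a day later. It gave 13.34, 13.58 and 13.11 at E14.5, and 13.43, 13.30 and 13.45 at E15.5. The FVF- arrays lay between 8.26 and 9.69, below every FVF+ array. The difference between sorts at E12.5 was 3.56 ± 0.29 (limma adjusted p = 1.76e-08), an 11.8-fold ratio on the linear scale. Amylin was next: Iapp gave 10.22, 11.01 and 10.60 in FVF+ at E12.5 and 7.17 and 7.09 in FVF-, a difference of 3.48 ± 0.39 (1.04e-06). Ppy, with 11.34, 10.71 and 10.06 in FVF+ and 8.62 and 8.82 in FVF-, differed by 1.98 ± 0.28 (1.48e-05).

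Ghrelin, insulin and somatostatin were closest to the FVF- level at the start. Ghrl in FVF+ was 10.02, 10.12 and 9.56 at E12.5, against 8.70 and 8.11 in FVF-, a difference of 1.50 ± 0.25 (limma adjusted p = 0.000125). Ins2 gave 9.46, 9.12 and 9.10 in FVF+ and 8.45 and 8.36 in FVF-, and its difference of 0.82 ± 0.26 (0.019) was lost without FVF- replicate 1 (0.87, adjusted p = 0.0683), FVF- replicate 2 (0.78, 0.114) or FVF+ replicate 1 (0.71, 0.0656). Sst overlapped between sorts, at 8.57, 8.85 and 8.47 in FVF+ and 8.57 and 8.71 in FVF-, and was not called (-0.01 ± 0.27, adjusted p = 0.984). Non-overlap in the higher direction, seen for the other 6 genes at E12.5, held for 28.9% of all genes. At E13.5 Sst lay at 9.10 and 8.63 in FVF+ and at 8.37 on both FVF- arrays, a difference of 0.50 ± 0.30 that was not called (0.233). The Ins2 difference at E13.5, 1.20 ± 0.28 (0.003), was lost without FVF+ replicate 1 (0.91, 0.0649).

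Whether FVF+ cells changed with age was read from E12.5 to E15.5. Over these days 6 of the 7 genes rose, against 27.6% of all genes that rose and 46.9% called in all, and Gcg was the exception. The median change of the 7 was 2.53 log2 units, against 0.09 over all genes. The sizes differed widely: Sst rose by 4.84 ± 0.24 (28.6-fold, limma adjusted p = 5.28e-10), Ins2 by 3.13 ± 0.23 (8.75-fold, 2.84e-08), Iapp by 3.04 ± 0.35 (4.55e-06), Ghrl by 2.53 ± 0.23 (2.81e-07), Ppy by 1.59 ± 0.25 (8.98e-05) and Pyy by 0.78 ± 0.26 (0.0201). Sst began at its FVF- level, between 8.47 and 8.85 at E12.5, beside array medians of 8.68 to 8.82. Whether background signal at that level altered the size of its rise was not tested. The Pyy rise was not called without E12.5 replicate 3 (0.51, adjusted p = 0.129), E15.5 replicate 1 (0.76, 0.05) or E15.5 replicate 3 (0.75, 0.0565). Of 7 acinar markers, 6 rose in the same comparison, with a median of 2.11, and their mean went from 9.90 to 10.17 on the E12.5 arrays to 12.81 to 13.05 on those of E15.5. Of 9 pan-endocrine markers 8 rose, of 10 mesenchyme markers 4, of 4 neural crest and glia markers 2, and of 6 epithelial, 5 endothelial, 4 red blood cell and 6 macrophage markers 1 each; 1 mesenchyme marker fell. The part of these cells in the hormone changes was not tested. Because the numbered array codes climb with embryonic day, age and the order those codes may record cannot be told apart.

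Among the daily steps in FVF+ cells, that from E13.5 to E14.5 held most of the hormone gene calls. From E12.5 to E13.5 limma called none of the 7 genes and 1 gene of 19296 (0.00518%). At an unadjusted p under 0.05 this step held 3 of the 7, Pyy, Ppy and Ghrl, against 9.71% of all genes. Both E13.5 arrays of Pyy were below every E12.5 array (-0.93 ± 0.29, limma adjusted p = 0.337), as for 13.3% of genes, and both of Ghrl above (0.56 ± 0.25, 0.49), as for 17.5%. From E13.5 to E14.5, 6 of the 7 rose, where 5.88% of genes rose and 8.85% were called in all. Their median change was 1.98, against -0.04 over all genes. All 6 had every E14.5 array above both E13.5 arrays, as had 20.6% of genes.

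**Figure D2:**
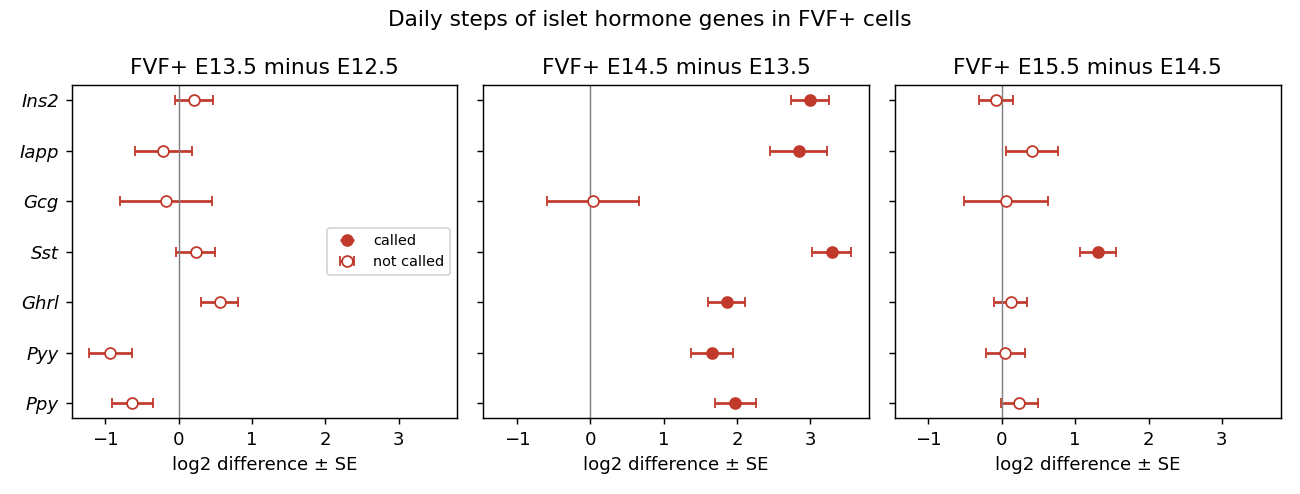
Log2 difference with its SE (horizontal axis) of each hormone gene over the 3 daily steps in FVF+ cells, with filled points for called genes. Filled points stand in the middle panel for 6 genes, from 1.66 for Pyy to 3.29 for Sst, and in the right panel for Sst alone.

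In the step to E14.5, Ins2 went from 9.73 and 9.14 to 12.16, 12.87 and 12.27, a rise of 3.00 ± 0.26 (limma adjusted p = 2.68e-06). Iapp went from 10.58 and 10.22 to 12.94, 13.73 and 13.04 (2.84 ± 0.39, 0.000188), and Sst from 9.10 and 8.63 to 11.71, 12.94 and 11.82 (3.29 ± 0.27, 1.61e-06). For each of these beta and delta cell genes the lowest E14.5 array lay well above the highest E13.5 array. Ghrl went from 10.71 and 10.21 to 11.93, 12.93 and 12.09 (1.86 ± 0.25, 0.000174). Ppy, at 10.21 and 9.94 before, reached 12.02, 12.57 and 11.57 (1.98 ± 0.28, 0.000217). E14.5 replicate 2 was the highest of its group for all 7 hormone genes and for the mean of 9 pan-endocrine markers, which was 11.24 there and 10.73 and 10.66 on replicates 1 and 3.

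From E14.5 to E15.5 Sst was the hormone gene called. It rose again, to 13.86, 13.12 and 13.43, with every array above those of E14.5, as for 27.1% of genes (1.31 ± 0.24, limma adjusted p = 0.00183). The other 6 were not called, in a step where 14.7% of genes rose and 25.6% were called: Ins2 stood at 12.16, 12.76 and 12.15 (-0.08 ± 0.23), Ghrl at 12.30, 12.41 and 12.59 (0.12 ± 0.23), Iapp at 13.63, 13.54 and 13.78 (0.41 ± 0.35) and Ppy at 12.41, 12.07 and 12.41 (0.24 ± 0.25). For Pyy the difference was 0.05 ± 0.26 and for Gcg 0.06 ± 0.57. The arrays of the 2 days overlapped for all 6. Whether the Sst step differed from the steps of the others was not tested. Of 7 acinar markers 5 rose in this step, and of 9 pan-endocrine markers none was called.

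The difference between the last 2 steps was fitted in a comparison chosen after seeing the data. Since it followed from the steps already seen on the same arrays, its calls are a description and not a separate test. Both steps also share the E14.5 arrays. The step to E14.5 exceeded that to E15.5 for 6 of the 7 genes, against 2.97% of all genes in that direction and 5.98% in either, with Ins2 at 3.08 ± 0.42 (limma adjusted p = 0.00131) and Sst at 1.98 (0.017). The count was 3 without E13.5 replicate 1, 1 without E13.5 replicate 2, 3 without E14.5 replicate 1, 2 without E14.5 replicate 2 and 3 without E15.5 replicate 1. It was 2 after quantile or cyclic loess normalization. Ins2 kept its call without any single array and under both normalizations.

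Markers of other cells also moved in the step to E14.5. All 9 pan-endocrine markers measured rose, with a median of 1.29, and their mean went from 9.83 and 9.01 at E13.5 to 10.66 to 11.24 at E14.5. Of 7 acinar markers 4 rose, with a median of 1.04, and their mean went from 10.37 and 10.34 to 11.66 to 12.16, highest on replicate 2. Of 6 epithelial, 5 endothelial and 6 macrophage markers none was called, of 4 neural crest and glia markers 1 rose, and of 10 mesenchyme markers 3 fell. The mean of the 5 endothelial markers stood apart on E13.5 replicate 2, at 9.43 against 7.82 on replicate 1, and was 9.25 on E14.5 replicate 2 against 8.28 and 8.52. The mean of 4 red blood cell markers was 8.87 on both E13.5 arrays, 7.31 to 7.55 at E14.5 and 7.84 to 8.06 at E15.5, with 1 of the 4 called lower in the step. At E12.5, FVF+ replicate 1 had a red blood cell mean of 9.08 against 7.66 and 7.33, and a mesenchyme mean of 9.58 against 8.67 and 8.50. Its pan-endocrine mean was also the highest of the 3, at 9.51 against 9.38 and 8.95. On that array Ins2, Gcg, Pyy and Ppy were the highest of the 3 and Iapp the lowest. The part of these cells in the hormone values was not tested. From E12.5 to E14.5, which passes over the letter-coded day, 5 of the 7 genes rose, against 9.53% of all genes that rose and 16.1% called in all: Sst by 3.53, Ins2 by 3.21, Iapp by 2.63, Ghrl by 2.42 and Ppy by 1.35, and Pyy was not called (0.73 ± 0.26, limma adjusted p = 0.064). All 5 endothelial markers (median 1.20), 6 of 7 acinar markers (median 1.32), 8 of 9 pan-endocrine markers, 2 of 4 neural crest and glia markers and 1 of 10 mesenchyme markers were called higher there too. Pyy was called there without FVF+ E12.5 replicate 1 (0.98, 0.0197) or FVF- E15.5 replicate 2 (0.73, 0.0284). It was also called with array weights (0.73, limma adjusted p = 0.0226) and with the filter on dim genes (0.73, 0.0496).

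To ask whether the hormones kept their proportions, each was expressed relative to Gcg on the same array, and the 6 FVF+ arrays of E14.5 and E15.5 were set against the 5 of E12.5 and E13.5. This split was also chosen after seeing the data. In level, 5 of the 7 genes (Ins2, Sst, Ghrl, Iapp and Ppy) had all later arrays above all earlier ones, as had 9.41% of all genes. Relative to Gcg, Sst gained 4.12 log2 units, Ins2 3.11, Iapp 2.95, Ghrl 2.28, Ppy 1.75 and Pyy 1.15. Each had all 6 later arrays above all 5 earlier ones, and the share of all genes that would do so relative to Gcg was not computed. Pyy was separated only in this form, since in level its earlier and later arrays overlapped. Since the split followed from the rise already seen, these values are a description with no test. Gcg itself ran only from 13.90 to 14.40 on the FVF+ arrays, so the gains largely repeat the rises in level. Whether compression of Gcg near the top of the range altered them was not tested.

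Relative to the mean of the 9 pan-endocrine markers, which rose as well, the genes divided. Sst gained 2.62, Ins2 1.62, Iapp 1.45 and Ghrl 0.79, and Gcg changed by -1.49. Ppy (0.26) and Pyy (-0.34) moved less, and their earlier and later arrays overlapped. For Ghrl the highest earlier array and the lowest later array both stood at 1.20. These too are a description with no test. These directions were the same after quantile and cyclic loess normalization and without any single FVF+ array.

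Pyy and Ppy encode related peptides and are neighbours on chromosome 11, with 0 other genes starting between them in the RefSeq table. Over the 11 FVF+ arrays they correlated at r = 0.96. Both were higher at E12.5 than at E13.5 in mean, and both rose to E14.5. Ins2, Sst, Ghrl and Iapp correlated with each other at 0.95 to 0.98, and Gcg with any of the 6 at -0.01 to 0.39. These values describe 11 arrays of 4 days that share the rise at E14.5, and carry no test. Whether probes of Ins2 also bound Ins1 transcripts, or those of Ppy and Pyy each other's, was not tested.

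For each hormone gene, the genes most like it in course over the 11 FVF+ arrays were sought. The 3376 candidates spanned at least 1 log2 unit and left out the hormone genes themselves and genes with predicted or provisional names. Sst was nearest to Sytl4, which encodes the granule docking protein granuphilin (r = 0.997), Ero1b, an oxidase of the endoplasmic reticulum (0.996), and Lrig1 (0.993). Iapp was nearest to Tmbim1 (0.990), Ero1b (0.988) and Ttc39b (0.987). Ghrl was nearest to Cryba2 (0.997), the calcium pump gene Atp2a3 (0.993) and Syt13 (0.989), and Ins2 to the trypsinogen gene Try10 (0.990), Cracdl (0.989) and the mitochondrial carrier gene Slc25a12 (0.987).

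Pyy and Ppy had other neighbours, with Pcsk1n, which encodes an inhibitor of prohormone convertase, in both sets. Pyy was nearest to Etv1 (0.961), Pcsk1n (0.952) and the granule membrane gene Ptprn (0.935), and Ppy to Pcsk1n (0.971), Nfasc (0.969) and the amidating enzyme gene Pam (0.966). Gcg had no close match among the candidates: Slc38a5, an amino acid transporter gene, came first at 0.706, then Snhg11 (0.695) and the receptor gene Gpr119 (0.676). Gcg itself ran only from 13.90 to 14.40 on the FVF+ arrays, and genes that flat had been left out by the span rule. Whether a flat gene matched it was not tested.

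FVF- cells were followed over the same days. Of the 7 genes 2 rose from E12.5 to E15.5, Ins2 by 0.89 ± 0.26 (limma adjusted p = 0.021) and Iapp by 1.36 ± 0.39 (0.0196), where 10.7% of genes rose and 20.4% were called. Ins2 went from 8.45 and 8.36 to 8.83, 9.77 and 9.28, and Iapp from 7.17 and 7.09 to 7.49, 9.49 and 8.49. Replicate 2 of E15.5 was the highest FVF- array for Gcg, Pyy, Ins2 and Iapp. Without it Ins2 (0.65, adjusted p = 0.0942) and Iapp (0.86, 0.0809) were not called, and Gcg fell by 2.34 ± 0.51 (0.00435), against -1.51 ± 0.63 with it (0.106). Without replicate 1 of E15.5 the Gcg change was -0.73. The Gcg change was called in 1 of the 21 fits that left out 1 array, and with array weights (-1.50 ± 0.54, limma adjusted p = 0.0427). Neither Ins2 nor Iapp was called without E12.5 replicate 1 (0.93, 0.0932 and 1.40, 0.0959) or replicate 2 (0.84, 0.131 and 1.32, 0.117).

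**Figure D3:**
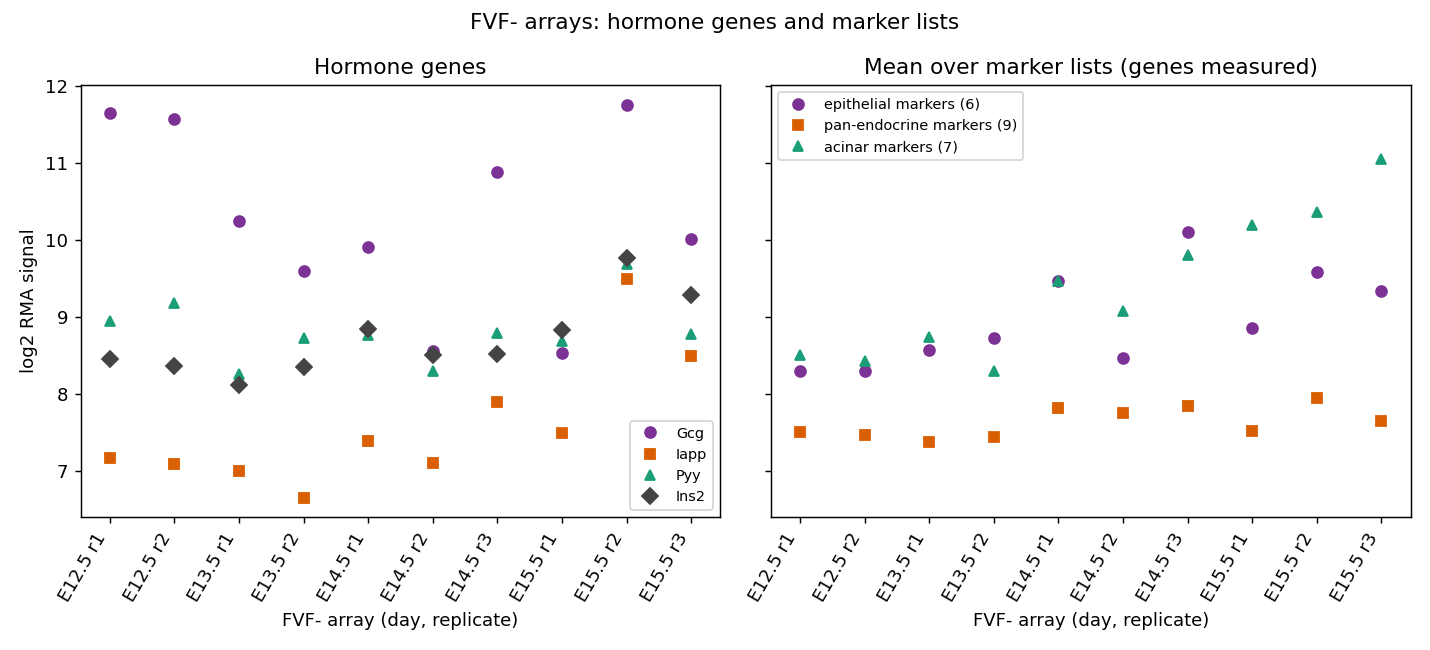
Log2 RMA signal (vertical axis) on each FVF- array (horizontal axis, by day and replicate) for Gcg, Iapp, Pyy and Ins2 on the left and for the means of 3 marker lists on the right. Gcg is at 11.65 and 11.57 on the E12.5 arrays, where the epithelial mean is at 8.30 and 8.29, and at 11.76 on replicate 2 of E15.5.

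On that replicate the pan-endocrine mean was 7.94, the highest of the FVF- arrays, the epithelial mean 9.58 and Foxa2 8.56. FVF- replicate 3 of E14.5 had a higher epithelial mean, 10.10, and a higher Foxa2, 8.89, with Gcg at 10.88 and Iapp at 7.89. Of the marker lists in FVF-, 3 of 6 epithelial and 6 of 7 acinar markers rose between E12.5 and E15.5 and 0 of 9 pan-endocrine markers were called, beside 10.7% of all genes that rose and 20.4% called. Of 10 mesenchyme markers 4 rose and 1 fell, of 6 macrophage markers 3 rose, of 5 endothelial markers 1 rose, of 4 red blood cell markers 1 rose and 3 fell (median -2.19), and of 4 neural crest and glia markers 1 fell. Sst (8.34 to 8.96), Ghrl (7.95 to 8.70) and Ppy (8.28 to 8.82) kept within narrow ranges over all 10 FVF- arrays. What part any of these cells had in the FVF- values was not tested.

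Whether the change with age differed between the sorts was tested as an interaction. The rise in FVF+ exceeded the change in FVF- for 5 of the 7 genes, against 10.8% of all genes called in that direction and 19.6% in either. The differences were 4.60 ± 0.36 for Sst (limma adjusted p = 5.15e-07), 2.69 ± 0.34 for Ghrl (4.72e-05), 2.24 ± 0.35 for Ins2 (0.000307), 1.75 ± 0.37 for Ppy (0.00372) and 1.68 ± 0.53 for Iapp (0.0329). Gcg (1.44 ± 0.85, 0.242) and Pyy (0.79 ± 0.39, 0.158) were not called. Without FVF- E15.5 replicate 2 both were called, Gcg at 2.27 (0.0273) and Pyy at 1.11 (0.0339), the only such call for either in 21 fits that left out 1 array. The values were smaller without FVF- E15.5 replicate 1 for Gcg (0.66) and without FVF+ E12.5 replicate 3 for Pyy (0.52). The Iapp call was lost without replicate 1 or 2 of FVF- E12.5, or replicate 1 or 3 of FVF- E15.5, FVF+ E12.5 or FVF+ E15.5 (1.18 to 1.72, adjusted p 0.0528 to 0.0951).

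Hormone precursors are cut and modified before release, and 9 of 10 genes listed for hormone processing and modification were measured. The list is broader than that step, since it also holds Ide and Dpp4, which degrade or trim hormones. Pcsk2 was the listed gene without a row of its own. Of the 9 measured, 8 were higher in FVF+ as the mean of the 4 days and 1 lower, with a median of 0.89, beside 30.5% of all genes higher and 55.7% called. Pcsk1, the prohormone convertase that cuts proinsulin, was higher by 3.60 ± 0.11, the insulin-degrading enzyme gene Ide by 1.72 ± 0.08, Pcsk1n by 1.34 ± 0.13 and the carboxypeptidase E gene Cpe by 1.24 ± 0.13. Qpct, the glutaminyl cyclase gene, was lower (-0.48 ± 0.07).

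From E12.5 to E15.5 in FVF+, 6 of the 9 rose and none fell, with a median of 0.95, beside 27.6% of all genes that rose and 46.9% called. Pcsk1 rose by 1.65 ± 0.20, Cpe by 1.22 ± 0.24, the convertase chaperone gene Scg5 by 1.01 ± 0.16 and Pam by 0.96 ± 0.15. Mboat4, which attaches the fatty acid that ghrelin needs to act, rose by 0.66 ± 0.16; it was named after its values were seen. Dpp4, the peptidase that trims incretins, was not called (-0.22 ± 0.12). The same number, 6 of 9, rose in the step to E14.5, where 5.88% of all genes rose, and none of the 9 was called from E12.5 to E13.5 or from E14.5 to E15.5.

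The listed receptor genes, not all of which serve these 7 hormones, were called at about the rate of all genes. All 22 listed genes were measured, and in the mean of the 4 days 8 were higher in FVF+, 5 lower and 9 not called, with a median of 0.05, beside 30.5% of all genes higher and 55.7% called. Sstr2, a somatostatin receptor gene, was higher by 1.76 ± 0.08, the incretin receptor genes Glp1r and Gipr by 1.21 ± 0.13 and 1.01 ± 0.10, and Sstr3 by 0.65 ± 0.09. Lower were Ramp2 (-2.69 ± 0.13), Calcrl (-2.54 ± 0.13) and Ramp3 (-2.14 ± 0.12), which encode parts of the adrenomedullin receptors of vessels, and Sstr4 (-1.63 ± 0.07). All 5 endothelial markers were lower in FVF+ as well (median -2.70).

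Between E12.5 and E15.5, 10 of the 22 receptor genes rose in FVF+, 4 fell and 8 were not called, with a median of 0.25 against 0.09 over all genes, of which 27.6% rose and 46.9% were called. Glp1r rose by 2.41 ± 0.23 (limma adjusted p = 6.36e-07), Gipr by 1.59 ± 0.19, Ramp2 by 0.83 ± 0.24 and Sstr3 by 0.82 ± 0.17. The amylin receptor gene Calcr fell by 1.43 ± 0.24, Sstr2 by 0.94 ± 0.15, the receptor gene Igf1r by 0.83 ± 0.13 and the insulin receptor gene Insr by 0.48 ± 0.15 (0.0131). The Insr call was lost without E15.5 replicate 2 (-0.41, 0.0535) and after cyclic loess normalization (-0.36, 0.0714).

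**Figure D4:**
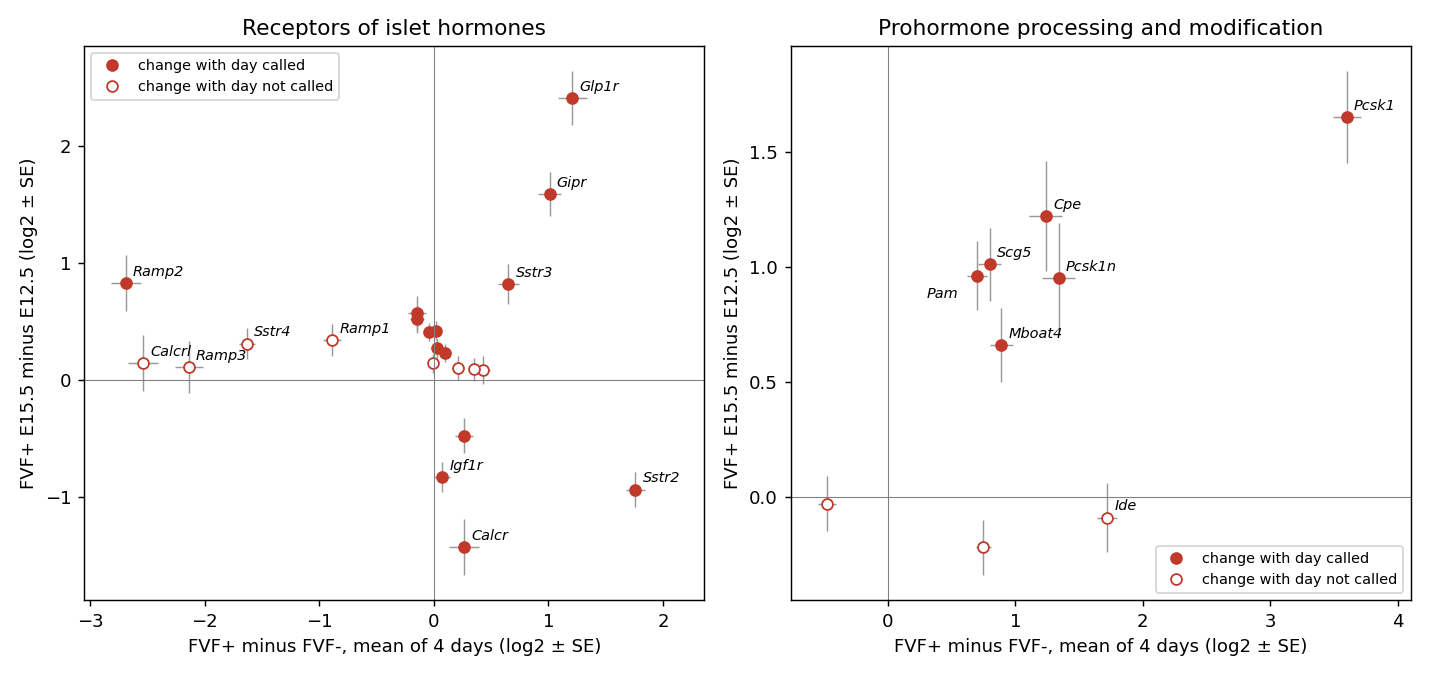
Change from E12.5 to E15.5 in FVF+ cells (vertical axis, log2 ± SE) against the mean difference between sorts (horizontal axis, log2 ± SE) for 22 receptor genes on the left and 9 genes of the processing and modification list on the right, with filled points where the change with age was called. Glp1r (1.21 and 2.41) and Pcsk1 (3.60 and 1.65) lie at the upper right, and Sstr2 (1.76 and -0.94) at the lower right.

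Other peptide hormone genes, 27 of 30 listed, were also called at near the rate of all genes: in the mean of the 4 days 11 were higher in FVF+, 6 lower and 10 not called, beside 30.5% of all genes higher and 55.7% called. Gast, the gastrin gene (2.91 ± 0.15), Cck, the cholecystokinin gene (2.53 ± 0.13), Gip (1.45 ± 0.09) and Gal (0.63) were higher, and the enkephalin gene Penk (-2.80 ± 0.13), Trh (-0.92), Adm (-0.71) and Edn1 (-0.67) lower. With age in FVF+, 10 rose and 2 fell, beside 27.6% and 46.9% of all genes that rose or were called. Npy, the neuropeptide Y gene of the same family as Ppy and Pyy, rose by 2.01 ± 0.17 (limma adjusted p = 1.63e-07), Gip by 0.61 ± 0.17 and the urocortin gene Ucn3 by 0.57 ± 0.15, while Cartpt fell by 0.70 ± 0.12 and Igf2 by 0.66 ± 0.10. The Gip rise was not called without E15.5 replicate 3 (0.46, 0.0559), and Gast was not called (0.34 ± 0.27).

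Listed transcription factors of hormone genes and islet subtypes were nearly all higher in FVF+, and with age were called at no more than the rate of all genes. Of 20 measured of 22, 19 were higher in FVF+ in the mean of the 4 days, beside 30.5% of all genes, with a median of 2.61. Foxa2 is among the 19, and because its fusion defined the sort, its difference was set by the sorting. Between E12.5 and E15.5 in FVF+ 5 rose, 3 fell and 12 were not called, with a median of 0.29, beside 27.6% of all genes that rose and 46.9% called. Mafa, a factor of maturing beta cells, rose by 1.27 ± 0.16 (limma adjusted p = 1.52e-05), Pax6 by 1.25 ± 0.32 (0.00431), Isl1 by 1.20 ± 0.22 (0.000373) and Irx1 by 0.49 ± 0.17 (0.0257). Hhex, a factor of delta cells and of early progenitors, fell by 1.27 ± 0.17 (2.36e-05). Nkx6-1 (-0.73 ± 0.26, 0.0275) and Pdx1 (-0.65 ± 0.26, 0.0495) were called lower, but neither after cyclic loess normalization (-0.62, 0.0702 and -0.55, 0.113), and Irx1 was not called there either (0.43, 0.0574). Leaving out 1 array kept the call of Irx1 in 17 of 21 fits, of Nkx6-1 in 16 and of Pdx1 in 5, and the changes ranged from 0.31 to 0.67, from -0.80 to -0.67 and from -0.79 to -0.55.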

How the data were processed

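The 21 Affymetrix arrays of FVF+ and FVF- cells were summarised by the authors with RMA in affy 1.44.0, per the submitters' processing notes. Values were used as deposited, in log2 units, from 4.00 to 15.31, with array medians of 8.68 to 8.82. The definition and filtering of probe sets are not given in any source used here. Of 23305 probe sets, 20728 carried 1 gene symbol, 1174 several and 1403 none. For the 804 genes with several probe sets the one of highest mean was used, which left 19296 genes.

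Group means of the 8 groups were fitted to all arrays in limma 3.58.1 (R 4.3.3, lmFit and eBayes, 13 residual degrees of freedom). P-values were two-sided and adjusted (Benjamini-Hochberg) over the 19296 genes in each of 12 comparisons, and likewise in 1 comparison chosen after seeing the data. Errors are moderated standard errors. Changes relative to other genes are described without a test. The number of arrays limits the precision.

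The hormone genes, the lists and the rule for naming were chosen with earlier results of these data known. Named were all hormone genes with a row, up to 4 called genes per direction of each list by the difference between sorts and by the change in FVF+, up to 2 genes not called, the 3 genes most like each hormone gene, and Foxa2. Lists had no test of their own. Alternatives were median centring, quantile and cyclic loess normalization, array weights, an intensity trend, a filter on dim genes (a group mean above 8.77), the probe sets of a gene averaged, only the arrays compared, blocks by replicate number, a threshold of 0.01, the days without E13.5 and each array left out. The steps were tested on simulated data. Promoter letters are from RefSeq tables on GRCm38.p6 and were matched by symbol for 7 of the 8 named genes.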

Additional observations from a re-analysis of the deposited data

Results flagged for a closer look

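For 5 hormone genes the E12.5 to E15.5 change differed between FVF+ and FVF- cells by limma's test of the difference itself. The FVF+ change minus the FVF- change was 4.60 for Sst, 2.69 for Ghrl, 2.24 for Ins2, 1.75 for Ppy and 1.68 for Iapp, in log2 units. For Ghrl and Ppy the FVF- changes were -0.15 and -0.16, and for Sst 0.24, none of them called. Single arrays could not be judged against their group, since no group had more than 3.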

How the results depend on the processing

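Scaling moved the median of all genes by at most 0.08 log2 units. Of the counts of hormone genes called, that for FVF- cells over time (2) became 0 at an adjusted p under 0.01 and 1 with only the arrays compared, and ranged from 0 to 2 when 1 array was left out. The count for the step to E14.5 against the step to E15.5 (6) became 1 at 0.01, 2 after cyclic loess, 2 after quantile normalization and 3 with only the arrays compared, and ranged from 1 to 6 when 1 array was left out. Every other count stayed within 1.5 times its value under the alternatives run. Samples of one day share only a replicate number across sorts: their deviations correlated at -0.37 to 0.49, and a random block for them had a correlation of 0.01. With the replicate number as a block, 7 genes were still called between sorts, 6 over time in FVF+, and 5 in the step comparison. Of single values for hormone and named genes under the alternatives, 113 lost the call and 10 gained it. Signs turned only for differences near 0 that were not called. Gcg from E13.5 to E14.5 in FVF+ was -0.05 with array weights, -0.01 after loess, -0.02 after quantile normalization and -0.02 with the block, and -0.09 to 0.13 without 1 array. Gcg from E12.5 to E15.5 was 0.02 after loess and -0.19 to 0.04 without 1 array, and from E14.5 to E15.5 -0.02 to 0.20. Its step comparison gave -0.29 to 0.15. Ins2 from E14.5 to E15.5 was 0.04 with array weights, 0.02 after loess, 0.04 after quantile normalization and -0.28 to 0.14 without 1 array, and from E12.5 to E13.5 -0.09 to 0.50. Sst between sorts at E12.5 was 0.00 with array weights, 0.00 after quantile normalization, 0.05 with the block and -0.12 to 0.07 without 1 array, and from E12.5 to E13.5 in FVF+ 0.00 to 0.47. Pyy over time in FVF- was 0.12 after loess, 0.07 with the block and -0.33 to 0.17 without 1 array, and from E14.5 to E15.5 in FVF+ -0.07 to 0.17. Ghrl gave -0.45 to 0.14 over time in FVF- and -0.08 to 0.42 from E14.5 to E15.5 in FVF+. The cause of these changes was not tested.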
